A study of Homo sapiens with 10 samples.

Results

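The step described here is the difference between the library of the human glioblastoma line U87 taken at 12 h of dibutyryl cAMP and the library of the same line taken at 6 h. These are 2 of the 10 libraries of the series. Of the 20379 genes in the deposited table, 11303 had a mean of at least 1 FPKM (fragments per kilobase of transcript, scaled to library depth) over the 5 U87 libraries and are described. The study followed U87 and a second established glioblastoma line, DBTRG-05MG, at 0, 6, 12, 24 and 48 h of 1 mM dibutyryl cAMP, by sequencing of poly(A) RNA. The dose and times are those of the sample labels, and the text on the whole series gives 1 mol/L and 3 days instead. The 5 groups of U87 used below are thus its 0 h library and its libraries after 6, 12, 24 and 48 h in the agent, and the 6 and 12 h libraries of DBTRG-05MG are set beside them. Each line and time is 1 library, so there is no spread between replicates and no test, and every difference below is a size. No untreated library at 6 h or later is part of the series, so the agent and the time in culture cannot be told apart. In cultures of mixed states, fewer cells with a transcript and less transcript in each cell cannot be told apart either.

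Dibutyryl cAMP enters cells, is converted to active cAMP analogues and activates protein kinase A, which phosphorylates the transcription factor CREB. Cells short of oxygen stabilise the alpha subunits of HIF, since the EGLN prolyl hydroxylases that mark them for the ubiquitin ligase subunit VHL need oxygen. HIF then binds DNA with ARNT at short sites whose core reads ACGTG or GCGTG, and raises the transcription of glucose transporters, glycolytic enzymes, pyruvate dehydrogenase kinases, carbonic anhydrases and angiogenic factors. The HIF alpha subunits are controlled mainly as proteins, which these data do not measure.

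The relative depth of the 10 libraries, read from the size of single-read steps at low values, ran from 87.59 to 102.3% of that of the U87 0 h library. The 6 and 12 h libraries of U87 stood at 102.3 and 96.45%, and an approximate scale puts them near 10400000 and 9800000 fragments. The non-coding RNA BCYRN1 held 10.1% of all FPKM in U87 at 6 h and 13.3% at 12 h. Markers of other cell types were scarce in U87. Of 9 microglial markers 7 stayed under 1 FPKM in all 5 libraries, as did 7 of 8 endothelial, 5 of 8 neuronal, 5 of 8 oligodendrocyte and 6 of 8 epithelial markers. The microglial sum, held mostly by CD68, was 327.2 FPKM at 6 h and 349.0 FPKM at 12 h, within its range of 327.2 to 645.8 FPKM over the line. U87 had high levels of VIM (5377 FPKM at 6 h and 5698 FPKM at 12 h) and CD44, whereas the glial markers GFAP, S100B, SOX2 and CHI3L1 stayed under 1 FPKM in every U87 library. S100B and SOX2 were listed at 0 in all 5.

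The step was small for most genes. On the log2 scale of FPKM + 1, on which all steps and folds below are given, the median step was -0.05 and the quartiles were -0.25 and 0.16. Of the 11303 genes, 4846 were above and 6451 below their 6 h level, the background for the list counts below. At least 2-fold higher at 12 h were 100 genes (0.885% of those described) and at least 2-fold lower were 94 (0.832%). At 1.5-fold the counts were 513 higher (4.54%) and 527 lower (4.66%). The steps on either side were larger by count: from 0 to 6 h 343 genes were at least 2-fold higher and 301 lower, and from 12 to 24 h 189 were higher and 408 lower. These steps share libraries with the step from 6 to 12 h, so their sizes are only set side by side.

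Of the 94 lower genes 48 were snoRNA or microRNA loci, as were 20 of the 100 higher genes, although such loci made up 179 of the 11303. These loci are short, so a few reads give several FPKM. Without them 80 genes were higher and 46 lower, which moves the higher share of all these genes from 51.5 to 63.5%. With the median step set to 0 the split was 122 to 75 (61.9% higher), and with 5 FPKM in place of 1 added to each value it was 20 to 12 (62.5%). Among the genes with a GC value it was 76 to 43 as deposited. It was 68 to 29 (70.1%) once the trend with GC content described below was removed. The higher share was 60.0% at a mean of at least 5 FPKM and 58.7% with upper quartile scaling. Rescaled without BCYRN1 it was 55.6%, with 0.1 FPKM added 55.0% and with no filter on low values 51.3%. At 1.5-fold it was 49.3%, and at 4-fold, with 3 higher and 11 lower, 21.4%. The excess of higher genes thus depended on the setting.

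Of the genes averaging 5 FPKM or more over the 5 U87 libraries, the one furthest above its 6 h level was CA9. This gene encodes the cell-surface enzyme carbonic anhydrase IX, a widely used marker of hypoxia. CA9 lies on chromosome 9 (35673856 to 35681159 on GRCh38). Its level was 30.9 FPKM at 0 h, 20.4 FPKM at 6 h, 70.0 FPKM at 12 h, 75.0 FPKM at 24 h and 25.9 FPKM at 48 h. The 12 h value was thus 3.31-fold over the 6 h value and close to the highest of the line, at 24 h. UCN2, which encodes the peptide hormone urocortin 2, stood at 3.26, 3.25, 12.9, 4.96 and 3.42 FPKM in the same order, a fold of 3.27 at a single time. The spans of UCN2 (48561727 to 48563773 on chromosome 3) and of PFKFB4, described with the hypoxia genes (48517684 to 48562015), overlap on the same strand, by under 5% of the exon bases of either. PTX3, a secreted pentraxin of innate immunity, showed the same single peak with 16.1, 10.9, 35.6, 7.82 and 11.1 FPKM. APLN, the angiogenic peptide apelin, stood at 5.76, 8.53, 24.2, 11.7 and 2.27 FPKM. CXXC5, a zinc finger regulator of Wnt signalling, had 20.5, 12.9, 43.6, 27.6 and 46.6 FPKM, so its 12 h level was also matched at 48 h. The other genes among the 12 highest at a mean of at least 5 FPKM were MIR138-1, DPF1, the corepressor BCOR, RASSF7, EFCAB4A, the IGF-binding protein IGFBP3 and ZNF395, with folds from 2.63 to 2.97.

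The higher genes differed in how their levels lay beside 0 h. Of the 100, 61 stood at least 1.5-fold below their 0 h level at 6 h (11.2% of all genes described did). At 12 h 50 were within 1.5-fold of 0 h (80.7% of all), and 46 stood at least 1.5-fold above it (8.24% of all), 29 of them at least 2-fold. The 12 h library was the highest of the 5 for 47 of the 100 (13.0% of all). At 24 h 34 were at least 1.5-fold below their 12 h level (15.1% of all). Genes chosen for a low value at 6 h beside 12 h tend to lie low at 6 h and high at 12 h, so these shares describe the genes and nothing is read from their distance to those of all genes.

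Where the 5 U87 libraries averaged 5 FPKM or more, the genes furthest below their 6 h level were led by small RNA loci, with SNORD25 first, which was listed at 8.64 FPKM at 6 h and at 0 at 12 and 24 h. Outside such loci and at the same mean, the lowest were KRTAP1-5, a keratin-associated protein, with 9.32, 29.2, 8.88, 6.08 and 14.7 FPKM, and DIO2, a target of cAMP described with its group. SRSF6, which encodes a serine- and arginine-rich splicing factor, had 23.0, 79.6, 29.2, 15.9 and 17.2 FPKM. KIAA1199, a protein of hyaluronan breakdown, had 1.52, 10.9, 3.98, 4.62 and 6.65 FPKM. All of these but SNORD25 stood at their highest level of the line at 6 h. Others of the 12 lowest did not: TOP2A and HMGB2, described with the mitosis genes, were highest at 0 h, and TRIM52 at 48 h. Of the 94 lower genes, 51 stood at least 1.5-fold above 0 h at 6 h (9.86% of all genes described). At 12 h 52 were at least 1.5-fold below 0 h (11.0% of all), 28 were within 1.5-fold of it (80.7%) and 14 were still above it (8.24%). As for the higher genes, the choice of members by their 6 and 12 h values shapes these shares.

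The list of hypoxia-responsive genes, chosen for their known response to low oxygen, was higher at 12 h. All lists were written with earlier results of these data known. The step itself was picked as the one to the hypoxia-like and glycolytic peak of the line. The counts below thus describe the members and are no independent support. Of the 52 hypoxia members 51 were kept, and EGLN3 was listed at 0 in all U87 libraries. At 12 h 43 of the 51 were above their 6 h level and 8 below it, with 7 at least 2-fold and 20 at least 1.5-fold higher and 0 lower by either fold. The list's median step was 0.39, beside -0.05 over all genes. The 12 h library was the highest of the line for 32 of the 51 (13.0% of all genes described). Relative to 0 h the list's median stood at 0.51 at 6 h, 0.95 at 12 h, 0.36 at 24 h and -0.02 at 48 h.

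The heat map of all 51 genes shows the levels at each time in both lines.

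**Figure D1:**
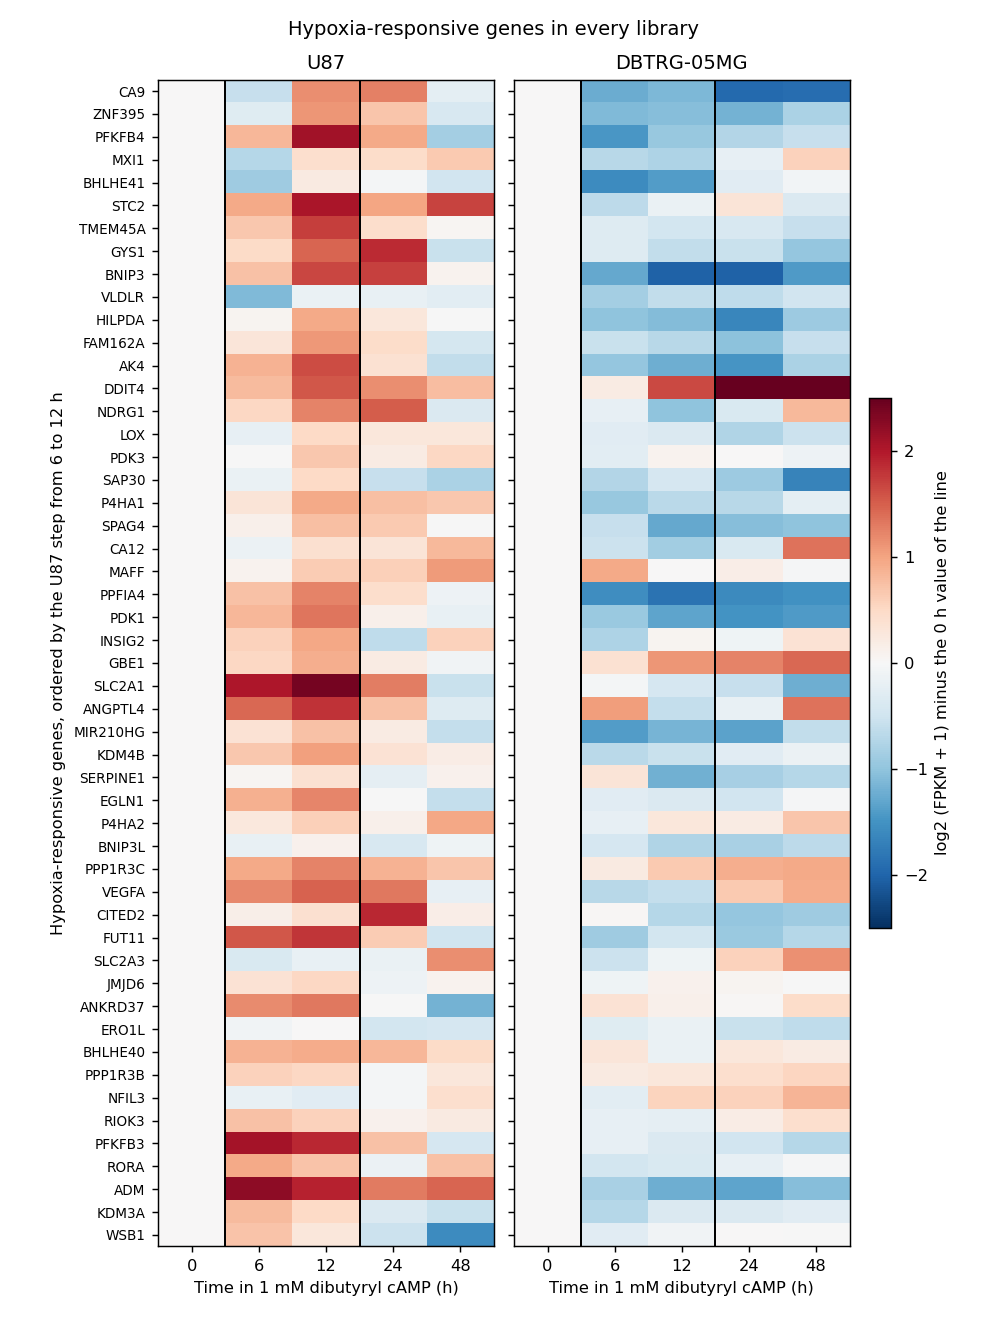
Hypoxia-responsive genes (51, in order of their U87 step from 6 to 12 h) in the 5 libraries of U87 (left) and DBTRG-05MG (right); the colour is log2(FPKM + 1) minus the value at 0 h of the same line, with values past 2.5 drawn at 2.5, and the black lines enclose 6 and 12 h. In U87 the 12 h column is the highest for 32 of the 51 genes. At 12 h 34 of the 51 stood at least 1.5-fold over their 0 h level in U87 and 0 that far under it. In DBTRG-05MG 3 stood that far over it and 24 under it.

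Promoters are shown for hypoxia and glycolysis genes that were at least 2-fold higher and whose window of 250 bases before and 50 after the RefSeq start (GRCh38.p14) holds the letters ACGTG, the HIF core, on either strand. Each line gives 100 bases before the start, 5′ to 3′ on the gene's strand, with the core or its reverse complement CACGT in capitals. The position in BHLHE41 reads the core on both strands and is the E-box CACGTG, which other factors also bind.
CA9 (chr9:35673828-35673927, plus strand): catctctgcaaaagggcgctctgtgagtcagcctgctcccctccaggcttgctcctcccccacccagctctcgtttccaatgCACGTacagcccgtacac
ENO2 (chr12:6914414-6914513, plus strand): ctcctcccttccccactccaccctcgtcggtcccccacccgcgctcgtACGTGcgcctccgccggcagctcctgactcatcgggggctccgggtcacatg
BHLHE41 (chr12:26125038-26125137, minus strand): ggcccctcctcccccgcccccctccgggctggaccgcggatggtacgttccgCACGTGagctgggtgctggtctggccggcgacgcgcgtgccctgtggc
The first base of the match lies 18 bases before the start in CA9, 118 in ENO2 and 48 in BHLHE41. Of the 41 hypoxia genes with a window, 24 held ACGTG (58.5%), beside 2447 of the 8947 described genes with a window (27.3%). GCGTG was common throughout, with 25 of 41 (61.0%) beside 51.5% of all, and CACGTG, whose matches are all matches of ACGTG too, was in 11 of 41 (26.8%) beside 10.3%. The step was no larger where the letters were present. The 24 genes with ACGTG had a median step of 0.39, and the 17 without it had 0.50. The letters TGACGTCA, the full site of CREB, were in 2 of the 41 windows (4.88%) beside 3.49% of all.

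Among the factors themselves little differed. HIF1A, the main alpha subunit, stood at 141 FPKM at 0 h, 166 at 6 h, 144 at 12 h, 212 at 24 h and 267 FPKM at 48 h, a step of -0.20. EPAS1, the alpha subunit of HIF-2, had 82.9, 81.6, 112, 131 and 99.1 FPKM, a step of 0.45. The partner gene ARNT had 9.57 FPKM at 6 h and 9.32 FPKM at 12 h, and VHL had 14.1 FPKM at both times. EGLN1, the oxygen sensor that HIF itself induces, had 4.35, 8.92, 11.4, 4.33 and 2.54 FPKM, with its highest value at 12 h. The 7 kept genes of this list had a median step of 0.00 and 0 of them differed by 1.5-fold.

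The hypoxia-responsive genes that were at least 2-fold higher had unlike levels before the step. PFKFB4, STC2 and TMEM45A were above their 0 h level at 6 h and peaked at 12 h. PFKFB4, which makes the activator of phosphofructokinase, had 14.2, 26.0, 64.1, 28.3 and 7.46 FPKM. STC2, a secreted stanniocalcin, had 13.6, 27.1, 58.7, 27.9 and 46.0 FPKM, and TMEM45A had 3.35, 5.98, 13.4, 4.91 and 3.49 FPKM. CA9, ZNF395, MXI1 and BHLHE41 were instead below 0 h at 6 h. ZNF395 had 8.49, 6.73, 19.3, 14.3 and 6.15 FPKM. MXI1, which opposes MYC, had 5.23 FPKM at 0 h, 2.82 at 6 h and 7.31 at 12 h. BHLHE41, a repressor of the circadian clock, had 15.7 FPKM at 0 h, 8.01 at 6 h and 18.4 at 12 h, so its 12 h level was within 1.5-fold of the start.

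Smaller steps covered the other functions of the list. BNIP3, which marks mitochondria for removal, stood at 66.0, 110.4, 212.5, 219 and 70.6 FPKM, and FAM162A, a mitochondrial protein, at 41.4, 51.2, 88.7, 57.5 and 30.0 FPKM. The glycogen synthase gene GYS1 had 18.3, 25.7, 51.7, 69.0 and 12.0 FPKM, and the branching enzyme GBE1 had 32.0, 46.1, 60.9, 36.9 and 30.0 FPKM. In the matrix group the cross-linking enzyme LOX had 42.5 FPKM at 6 h and 70.0 FPKM at 12 h, and the collagen prolyl hydroxylase P4HA1 had 27.7 and 43.4 FPKM. BNIP3 and GYS1, like NDRG1 (48.9, 70.3, 117, 141 and 38.0 FPKM), were highest at 24 h and not at 12 h.

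Some of the best known hypoxia-responsive genes were already well above their 0 h level at 6 h. The glucose transporter SLC2A1 stood at 12.4, 53.5, 69.2, 31.6 and 8.16 FPKM. VEGFA, the angiogenic factor, stood at 116, 268, 324, 291 and 99.6 FPKM. For both, the gain from 6 to 12 h was small beside that from 0 to 6 h, with steps of 0.37 and 0.27. ADM, the vasodilator adrenomedullin, was highest at 6 h with 36.2, 173, 141, 91.1 and 101 FPKM. PFKFB3, the other inducible activator of phosphofructokinase, did the same with 9.38, 42.7, 37.5, 16.2 and 6.75 FPKM. The histone demethylase KDM3A and the ubiquitin ligase subunit WSB1 were also lower at 12 h, with steps of -0.30 and -0.44. The hypoxia list shares DDIT4, STC2 and VLDLR with the list of the integrated stress response, and without these 3 genes its median was 0.36.

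Glycolysis genes were higher as a list but by less. Of 24 members 19 were above and 5 below their 6 h level, 2 were at least 2-fold higher and 0 lower, and the median step was 0.35. Glycolysis shares 4 members with the hypoxia list (PFKFB3, PFKFB4, SLC2A1 and SLC2A3), and without them its median was 0.38. The step was spread over the pathway. At the hexose end GPI had 196 FPKM at 6 h and 263 FPKM at 12 h, PFKL 38.7 and 52.6 FPKM, PFKP 161 and 204 FPKM and ALDOA 826 and 1095 FPKM. In the triose steps GAPDH had 5234, 4722 and 6346 FPKM at 0, 6 and 12 h, and PGK1 had 397, 421 and 580.5 FPKM. ENO2, the enolase of neurons and of many tumours, was the second member past 2-fold, with 87.5, 66.0, 141, 115 and 84.7 FPKM.

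At the lactate end LDHA stood at 917, 1111, 1491, 1221 and 734 FPKM and the lactate exporter SLC16A3 at 26.9, 32.1, 45.2, 31.2 and 33.0 FPKM. LDHB, the isoform that favours the reverse reaction, was lower at 12 h with 166, 170.3, 129.6, 80.8 and 165 FPKM. The 12 h library was the highest for 8 of the 24 glycolysis genes, and 24 h was the highest for another 8. PKM was among the latter, with 1744, 1543, 2120, 3460 and 1478 FPKM. The name of a glycolytic peak at 12 h thus holds for some members (PFKFB4, ENO2, PGK1, LDHA, ENO1 and SLC16A3 among them) and not for PKM, GAPDH, ALDOA, TPI1 or GPI. Relative to 0 h the list's median was 0.34 at 12 h and 0.26 at 24 h. In GENCODE 29 another gene model on the same strand covers 1636 exon bases of ALDOA, most of the gene, and one covers 56.2% of those of LDHB. Antisense genes cover 19.0% of the exon bases of GAPDH. How the authors' counting divided such reads is not given in the sources used here, so they cannot be told apart.

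Genes of the entry of pyruvate into mitochondria went the other way as a list, with 4 of 13 above and 9 below their 6 h level and a median of -0.26. Over all 11303 genes 4846 were above and 6451 below. With the trend with GC content described below removed, the list's median was -0.15. The kinases that inhibit pyruvate dehydrogenase and are known HIF targets, PDK1 and PDK3, were higher. PDK1 had 7.62, 14.4, 20.8, 8.46 and 6.56 FPKM and PDK3 had 1.34, 1.33, 2.72, 1.71 and 2.34 FPKM. PDK4, the kinase induced by fasting signals, was the exception and was at least 2-fold lower, at 3.31 FPKM at 6 h and 1.02 FPKM at 12 h. The pyruvate carrier subunit MPC1 had 11.4, 16.8, 10.1, 5.16 and 14.1 FPKM and the dehydrogenase subunit PDHB had 34.4, 43.8, 29.1, 26.9 and 40.3 FPKM. Both were close to their 0 h level at 12 h. An antisense gene covers 15.9% of the exon bases of PDHB.

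**Figure D2:**
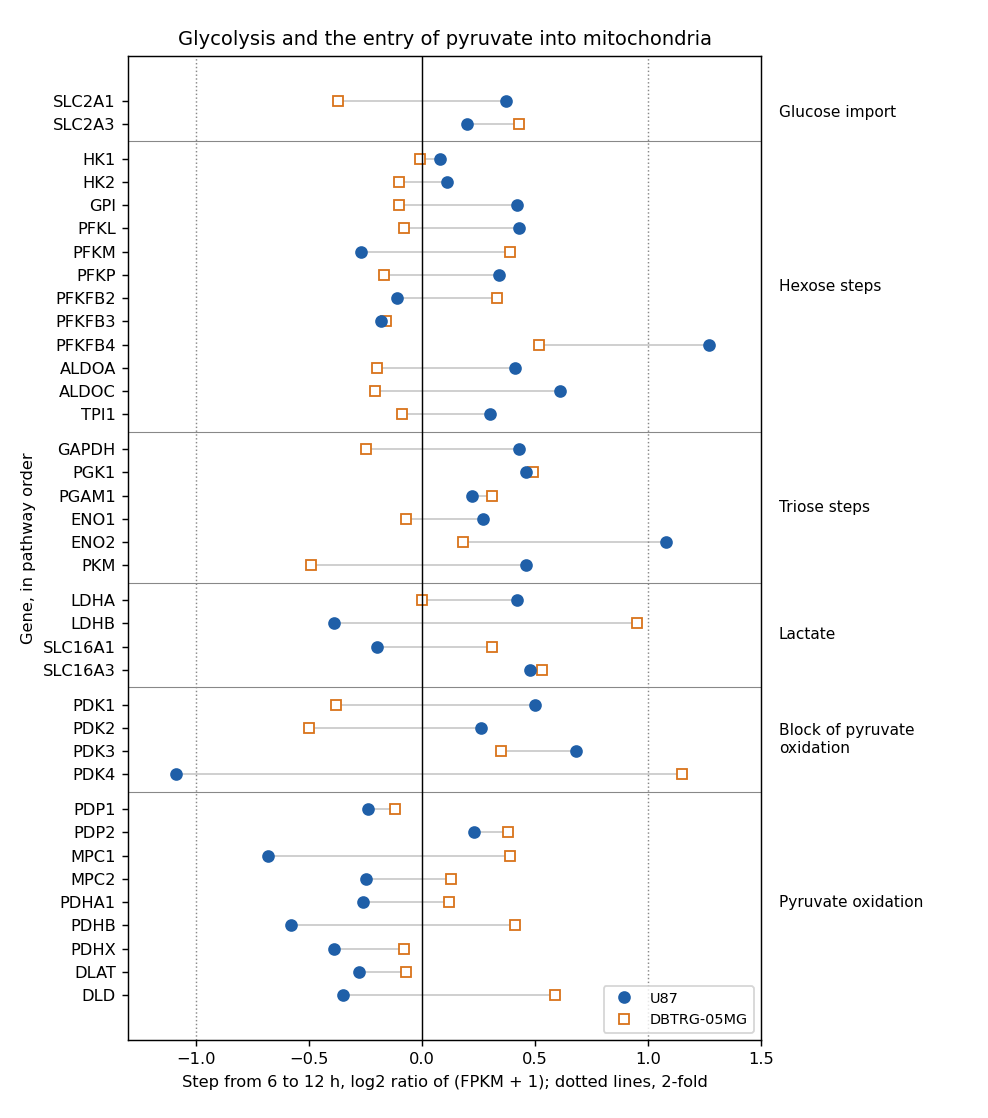
Step from 6 to 12 h, as the log2 ratio of FPKM + 1, for the 24 glycolysis genes and the 13 genes of pyruvate entry in pathway order; filled circles are U87, open squares DBTRG-05MG, each 1 pair of libraries, and dotted lines mark 2-fold. In U87 19 of the 24 glycolysis genes lie right of 0 and 9 of the 13 pyruvate genes left of it.

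The respiratory chain and the citric acid cycle were slightly lower. Of 72 respiratory chain subunits 59 were below and 13 above their 6 h level, beside 6451 and 4846 of all 11303 genes. Their median step was -0.23, and 0 of them differed by 2-fold. NDUFB1 of complex I had 94.5, 122, 75.7, 30.1 and 94.0 FPKM and COX6C of complex IV had 55.3, 67.5, 42.5, 25.2 and 78.7 FPKM. ATP5D, a subunit of ATP synthase, went against the list with 86.6 FPKM at 6 h and 146 FPKM at 12 h. The median of 15 citric acid cycle genes was -0.22. All 72 respiratory chain genes were within 1.5-fold of their 0 h level at 12 h, and 28 were at least 1.5-fold below it at 24 h.

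Genes of mitosis and of DNA replication had opposite steps. All 51 mitosis genes kept were below their 6 h level at 12 h, 25 of them by at least 1.5-fold and 3 by at least 2-fold, with a median of -0.58. TOP2A, the topoisomerase that untangles chromosomes, had 62.3, 54.0, 20.3, 34.8 and 49.7 FPKM. It lies on chromosome 17 (40388516 to 40417950). CDK1, the kinase that drives entry into mitosis, had 27.6, 21.3, 9.44, 11.9 and 25.9 FPKM. KIF23, a kinesin of cytokinesis, had 43.7, 40.5, 19.3, 26.7 and 13.2 FPKM. For TOP2A and CDK1 the 12 h library was the lowest of the line, with a partial return by 24 h, whereas KIF23 was lowest at 48 h. Relative to 0 h 16 of the 51 stood at least 1.5-fold lower at 6 h, 41 at 12 h and 24 at 24 h.

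Lower with them were HMGB2, a chromatin protein of dividing cells (49.6, 30.2, 12.1, 25.0 and 33.0 FPKM), the ubiquitin-conjugating enzyme UBE2C (146, 131, 72.0, 148 and 128 FPKM) and the kinesin KIF2C (35.3, 27.0, 14.4, 30.9 and 28.2 FPKM). Of the genes averaging 5 FPKM or more, these 3 and GAS2L3 were among the 8 lying furthest below both the 6 and the 24 h level at 12 h.

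Genes of the start of DNA replication were mostly higher. Of 51 members 40 were above and 11 below their 6 h level, 15 were at least 1.5-fold and 3 at least 2-fold higher, 0 were lower by either fold, and the median was 0.32. CDT1, which loads the MCM helicase on origins, had 23.9, 11.8, 30.4, 23.2 and 13.3 FPKM. The origin recognition subunit ORC1 had 11.3, 6.51, 15.3, 12.5 and 5.02 FPKM, and DTL, which directs the destruction of CDT1, had 4.01, 2.34, 6.57, 2.53 and 1.79 FPKM. In all of these the 6 h value lay below the 0 h value. For the list, 23 of 51 stood at least 1.5-fold under 0 h at 6 h and 10 did so at 12 h, when 39 were within 1.5-fold of 0 h, a share close to the 80.7% of all genes. Not all members followed. RRM1 and RPA3 were lower at 12 h, with steps of -0.40 and -0.43.

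The promoters of the mitosis genes at least 2-fold lower are shown because they hold the letters TTTGAA. These letters are the core of the cell cycle homology region through which the DREAM and MuvB complexes control mitotic genes. Windows were chosen as for the hypoxia genes, so other starts of a gene are not covered. Whether the marked letters act as such a region was not tested. Lines are written as before, with TTTGAA or its reverse complement TTCAAA in capitals.
TOP2A (chr17:40418017-40418116, minus strand): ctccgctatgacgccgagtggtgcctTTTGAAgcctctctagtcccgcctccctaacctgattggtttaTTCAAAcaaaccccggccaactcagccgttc
CDK1 (chr10:60778123-60778222, plus strand): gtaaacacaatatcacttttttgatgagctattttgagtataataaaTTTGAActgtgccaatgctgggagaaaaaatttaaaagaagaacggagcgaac
KIF23 (chr15:69414247-69414346, plus strand): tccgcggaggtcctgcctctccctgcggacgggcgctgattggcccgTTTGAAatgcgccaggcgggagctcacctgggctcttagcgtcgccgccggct
Of the 44 mitosis genes with a window 33 held TTTGAA (75.0%), beside 9.81% of all described genes with a window and 1 of 42 replication genes (2.38%). The letters CCAAT, the core of the NF-Y site, were in 35 of the 44 (79.5%) beside 36.9% of all. As for hypoxia, the step did not follow the letters within the list. The 33 genes with TTTGAA had a median step of -0.60 and the 11 without it -0.56.

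Genes of NF-kappaB signalling were mostly above their 6 h level in U87 at 12 h. Of 22 NF-kappaB target and pathway genes 20 were above and 2 below their 6 h level, 7 by at least 1.5-fold and 0 by 2-fold, with a median of 0.50. With 5 FPKM in place of 1 added to each value the median was 0.30, beside 0.32 for hypoxia and 0.34 for glycolysis. NFKBIE and NFKBIA, inhibitors that NF-kappaB induces, had 3.25 and 6.78 FPKM and 81.6 and 131 FPKM at 6 and 12 h. The transcription factor IRF1 had 6.42, 10.6, 19.6, 6.78 and 7.19 FPKM, and the A20 gene TNFAIP3 had 4.08, 9.33, 16.2, 7.11 and 9.24 FPKM. CXCL3 went against the list with 50.2 FPKM at 6 h and 30.4 FPKM at 12 h. An antisense gene and a transcript on the other strand overlap the exons of IL6 (25.0%) and IRF1 (15.3%).

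The 25 kept cytokine and growth factor genes showed no common direction, with 16 above and 9 below their 6 h level, 1 at least 2-fold higher, 1 lower and a median of 0.11. CSF3, the granulocyte growth factor, was the cytokine with the largest step, with 366.5, 389, 899.7, 984 and 556 FPKM. IL11, which signals through gp130, had 5.90, 187, 337, 329 and 49.3 FPKM. IL6 had 13.6, 87.8, 115, 198 and 30.5 FPKM, so its step of 0.38 lay between larger gains before and after. SOCS3, the feedback inhibitor of gp130 signalling, had 19.2, 20.1, 38.5, 30.8 and 13.6 FPKM, and was thus higher at 12 h and not at 6 h. The 13 kept genes of the IL-6 family and its signalling had a median step of 0.09, with 8 above and 5 below their 6 h level. FGF2, a growth factor, was at least 2-fold lower, with 27.4 FPKM at 6 h and 13.2 FPKM at 12 h.

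Targets of cAMP and CREB were divided over the step. Of 27 such genes 10 were above and 17 below their 6 h level, and the median of -0.09 lay close to the -0.05 of all genes. DIO2, the deiodinase that activates thyroid hormone, had 3.68, 155, 51.7, 15.1 and 6.83 FPKM, and the coactivator PPARGC1A had 0.73, 5.33, 2.07, 2.28 and 1.28 FPKM. ATF3, on the same list, was the opposite with 3.41, 6.60, 14.2, 4.84 and 9.93 FPKM. The highest library was 6 h for 14 of the 27, 12 h for 4, 24 h for 5, 48 h for 3 and 0 h for 1. Over all 11303 genes it was 6 h for 2960 and 12 h for 1475. At 12 h 21 of the 27 still stood at least 1.5-fold above 0 h.

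CTGF, a matrix protein induced by TGF-beta and YAP, had 16.1, 71.2, 29.5, 25.8 and 13.2 FPKM. TGFBR1 (47.8 FPKM at 6 h and 24.4 FPKM at 12 h) and PMEPA1 (137 and 69.8 FPKM) were lower as well, while TAGLN, an actin-binding protein of smooth muscle, had 3.53 and 5.79 FPKM. The 19 TGF-beta genes had 9 above and 10 below their 6 h level and a median of -0.16. Of the immediate-early genes FOSL1, an AP-1 subunit, had 570.6, 186, 346, 622 and 114 FPKM, so its lowest values lay at 6 and 48 h.

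**Figure D3:**
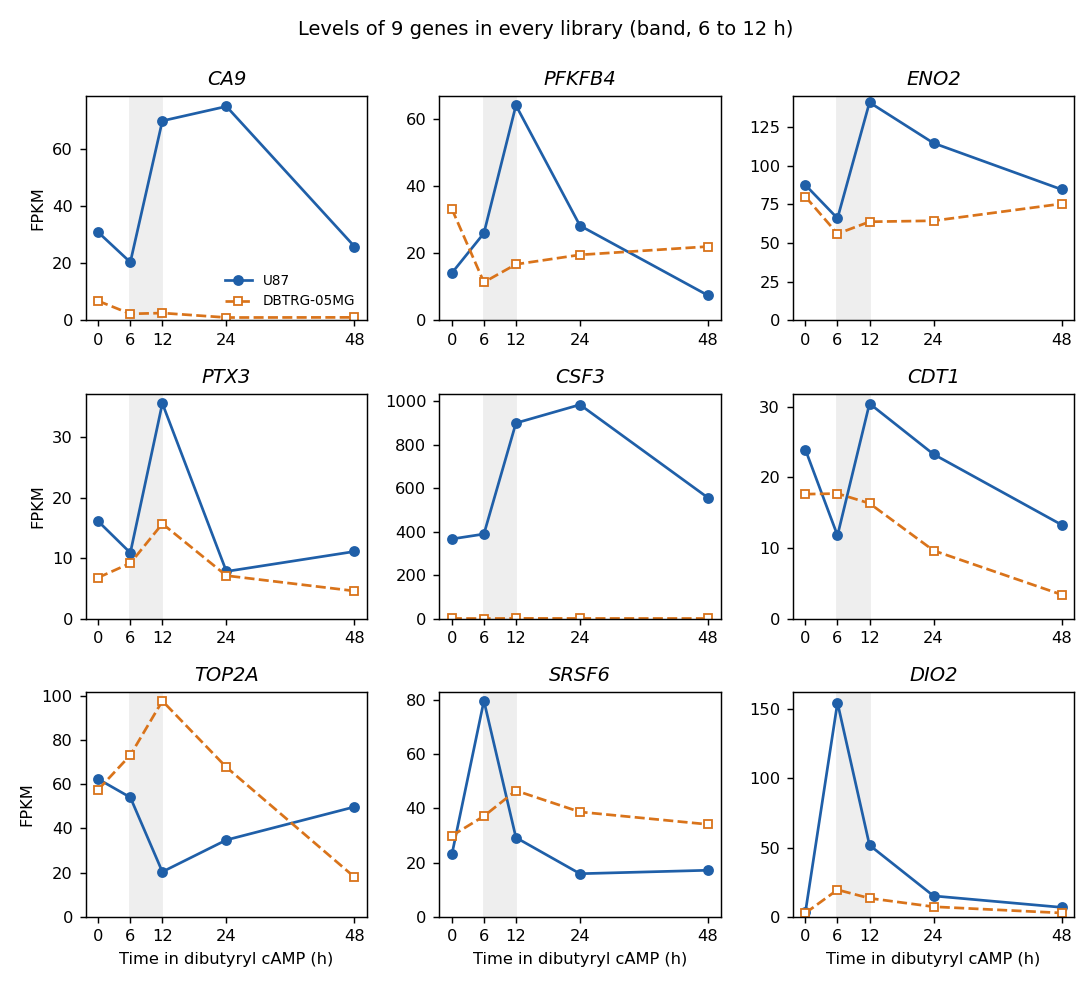
Levels in FPKM of 9 genes against time in dibutyryl cAMP, with U87 as filled circles and DBTRG-05MG as open squares, 1 library a point, and a grey band from 6 to 12 h. In U87 PFKFB4, ENO2, PTX3 and CDT1 peak at 12 h, CA9 and CSF3 are higher still at 24 h, TOP2A is lowest at 12 h, and SRSF6 and DIO2 come down from a 6 h peak.

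Stress, matrix, ribosome and clock genes were also described. The 26 genes of the integrated stress response had a median of 0.33, with 18 above and 8 below. CEBPB stood at 54.4 FPKM at 6 h and 97.0 FPKM at 12 h. The 21 collagen genes and collagen-modifying enzymes had a median of 0.33, with 18 above and 3 below. The collagen chaperone SERPINH1 had 42.1, 50.6, 104, 58.2 and 77.4 FPKM. The 27 ribosome biogenesis genes had a median of -0.33, with 22 below. RRS1 had 34.2 FPKM at 6 h and 18.8 FPKM at 12 h. The clock genes NR1D1 (28.0, 17.9, 47.2, 52.8 and 58.0 FPKM) and PER1 (6.27, 1.47, 3.35, 7.37 and 14.8 FPKM) were above their 6 h level, and the 16 clock genes had a median of 0.11. The exons of NR1D1 overlap those of THRA on the other strand by 9.5%.

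DBTRG-05MG, sampled at the same times in the same agent, shared few of these genes. Among 10682 genes kept in both lines, 105 (0.983%) were at least 2-fold higher and 72 (0.674%) lower in DBTRG-05MG, beside 85 (0.796%) and 79 (0.74%) in U87. The lines shared 4 of the higher genes, which is 4.71% of the U87 genes and 3.81% of the DBTRG-05MG genes, and all 4 were snoRNA or microRNA loci. They shared 9 of the lower genes (11.4% and 12.5%), of which CTGF and the chemokine CCL3 were the only ones outside small RNA loci. About as many had opposite steps. Lower in U87 and higher in DBTRG-05MG were 8 genes (10.1% of the U87 genes and 7.62% of the DBTRG-05MG genes). PDK4, low in U87, was the only one of these outside small RNA loci. The other way were 4 (4.71% and 5.56%), mostly small RNA loci as well. CTGF had 204 FPKM at 6 h and 46.2 FPKM at 12 h in DBTRG-05MG. The 85 genes higher in U87 had a median step of 0.04 in DBTRG-05MG, beside 0.08 for all genes there. The 79 lower genes had 0.15.

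The hypoxia list, at 0.39 in U87, had a median of 0.03 in DBTRG-05MG, with 26 above and 25 below their 6 h level. Over all 11303 genes kept in U87, 6683 were above and 4546 below in DBTRG-05MG. BNIP3 had 93.3 FPKM at 6 h and 55.4 FPKM at 12 h there, and CA9 had 2.33 and 2.61 FPKM. DDIT4, a stress-induced inhibitor of mTOR, was an exception with 20.2 and 56.6 FPKM, beside 83.5 and 142 FPKM in U87. An antisense gene covers 48.5% of the exon bases of DDIT4. Relative to 0 h the list's median in DBTRG-05MG at 12 h was -0.47. The glycolysis list had -0.04 there, with LDHA at 807 FPKM at both times. LDHB differed the other way, from 103 to 199 FPKM.

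The mitosis list had opposite signs in the lines. Its median was 0.30 in DBTRG-05MG, with 43 above and 8 below, and TOP2A stood at 73.1 FPKM at 6 h and 97.6 FPKM at 12 h. The respiratory chain, at -0.23 in U87, had 0.30 in DBTRG-05MG, and the NF-kappaB list had -0.12. Among single genes, FOSL1 had 410.2 FPKM at 6 h and 182 FPKM at 12 h in DBTRG-05MG, and ANGPTL4, a HIF and PPAR target, had 15.6 and 4.26 FPKM there beside 11.7 and 15.3 FPKM in U87. BCYRN1 stood at 48585 FPKM at 6 h and 64757 FPKM at 12 h in U87, and its DBTRG-05MG levels were 12954 and 2361 FPKM. The integrated stress response (0.46) and ribosome biogenesis (-0.25) had the same sign in both lines. None of these differences between lines has a replicate behind it.

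**Figure D4:**
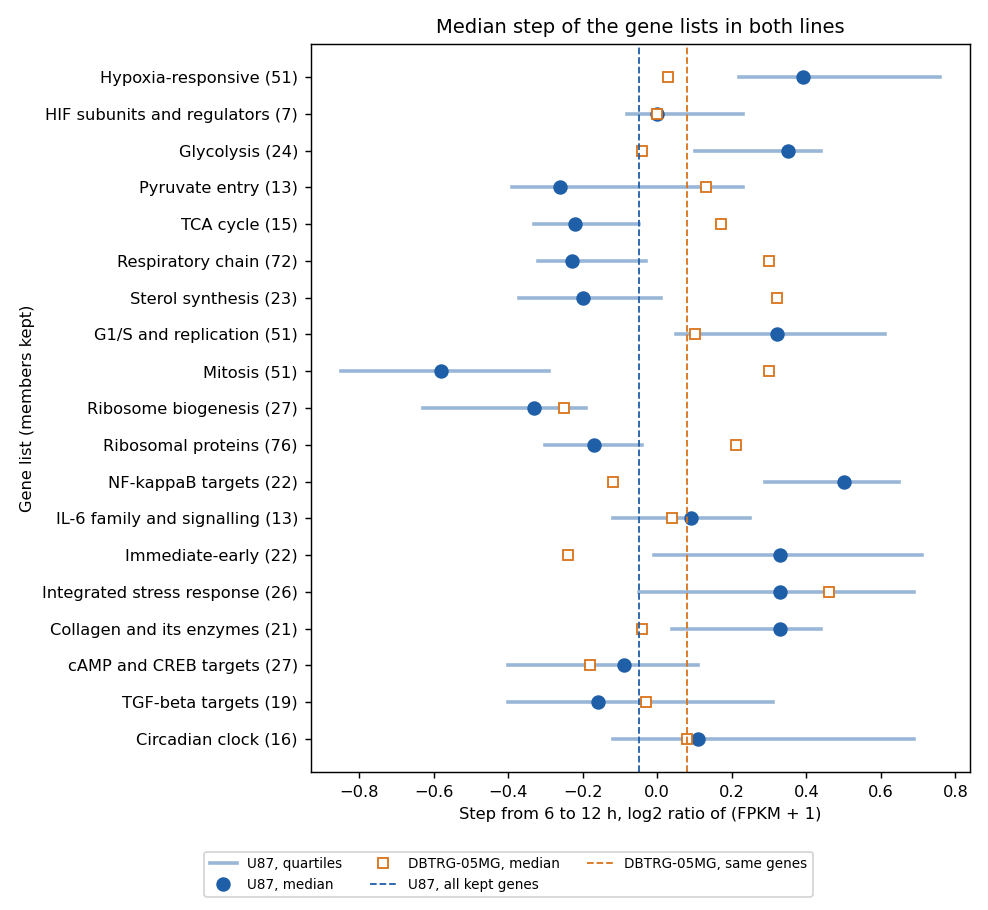
Median step from 6 to 12 h of 19 gene lists, as the log2 ratio of FPKM + 1, with the number of kept members in brackets; filled circles and bars are the U87 median and quartiles over members, open squares the DBTRG-05MG median, and dashed lines the medians over all genes kept in U87 (-0.05 and 0.08). The hypoxia, glycolysis and NF-kappaB lists lie right of the U87 line and mitosis furthest left, while in DBTRG-05MG mitosis lies right of its line.

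The step was related to the GC content of transcripts in both lines, in opposite directions. For the 10874 genes with a GC value (96.2%), split by GC content into 10 groups of like size, the U87 median went from -0.20 in the group lowest in GC to 0.16 in the highest, and that of DBTRG-05MG from 0.24 to -0.13. Across genes, which are not independent, Spearman's rho was 0.39 in U87 and -0.37 in DBTRG-05MG. The median GC content was 49.6% over all these genes, 59.9% over the 76 higher genes with a value and 45.0% over the 43 lower ones. The part of GC content in the steps was not tested. With the median of each group subtracted, the median step of the hypoxia list was 0.48, of glycolysis 0.30, of replication 0.36, of NF-kappaB 0.48 and of mitosis -0.48. Of the 76 higher genes 52 stayed at least 2-fold higher, and of the 43 lower genes 22 stayed lower. The respiratory chain, ribosomal protein and pyruvate entry lists came to -0.14, -0.12 and -0.15.

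**Figure D5:**
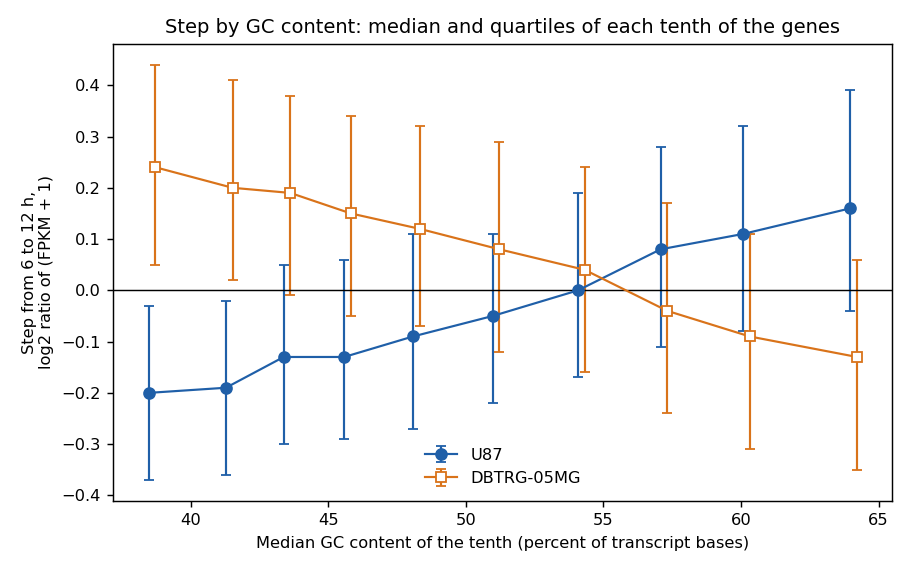
Step from 6 to 12 h, as the log2 ratio of FPKM + 1, against the median GC content of 10 groups of genes (1087 or 1088 genes each); points are medians and bars the quartiles over genes, with both lines drawn slightly apart. The U87 medians go from -0.20 to 0.16 with GC content and those of DBTRG-05MG from 0.24 to -0.13.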

How the data were processed

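RNA of 2 established glioblastoma lines at 5 times was measured, with 1 library for each line and time. Per the submitters' processing notes, HISAT, Bowtie2, RSEM and the hg38 build were used; versions and settings are not given in the sources used here. The authors deposited 1 table of values taken here as FPKM, a unit read from the values and the tools, since no header names it. The deposited value 0.002 stands for 0. Relative depth was read from the spacing of low values, and the totals, near 8900000 to 10400000 fragments a library, are approximate estimates from low values of genes with a single transcript length. Of 20379 symbols, 25 read as dates and were not restored.

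The step is log2((FPKM at 12 h + 1) / (FPKM at 6 h + 1)), a log2 ratio computed from the deposited FPKM that understates folds of low genes. A gene was kept where its 5 U87 libraries averaged 1 FPKM or more. No test was run. Genes are called higher or lower from 2-fold.

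The members and lists were chosen with earlier results of these data known. There are 44 lists, and 2 more (serine- and arginine-rich proteins and hnRNPs) were added after the values were seen. Named are the 12 highest and 12 lowest genes at a mean of at least 5 FPKM, at most 4 genes per list (those with the largest steps), all hypoxia, HIF, glycolysis and pyruvate genes, the 8 furthest peaks and troughs at 12 h, 6 genes in each direction shared by or differing between the lines, and IL6, IL11, CDKN1A, TXNIP, HIF1A, VEGFA and BCYRN1. NFKBIA, RRM1, RPA3, CCL3, GAS5 and SNHG1 were named after their values were seen. Positions, exon overlaps and GC content are from GENCODE 29 (GRCh38), and promoter sequences from RefSeq. The computations were checked on simulated data and run in Python 3.11.15 with numpy 2.4.6, pandas 2.3.3 and matplotlib 3.10.9.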

Additional observations from a re-analysis of the deposited data

Results flagged for a closer look

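In 4 lists the median step from 6 to 12 h lay at least 0.2 from 0 on opposite sides in the 2 lines; with 1 library for each line and time, the difference between the lines was not tested. The median of the mitosis list was -0.58 in U87 and 0.30 in DBTRG-05MG. The respiratory chain list had -0.23 in U87 and 0.30 in DBTRG-05MG. For the 23 sterol synthesis genes the medians were -0.20 in U87 and 0.32 in DBTRG-05MG. The 22 immediate-early genes had 0.33 in U87 and -0.24 in DBTRG-05MG. Of them 6 are also on the list of cAMP and CREB targets. Without these 6 the U87 median was 0.13, which is under the 0.2 used here. The medians over all genes kept in U87 were -0.05 and 0.08. After GC centring the U87 medians were -0.48 for mitosis and 0.31 for the immediate-early genes. They were -0.14 for the respiratory chain and -0.16 for sterol synthesis, both nearer 0 than the 0.2 used here. The part of GC content in these differences between the lines was not tested.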

How the results depend on the processing

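With 1 library for each line and time, no replicate could be left out. No paired analysis was possible because each group is 1 library and the results come from no test. GC centring, the other folds and the removal of small RNA loci were chosen after seeing the data. Of 412 list medians under the alternatives 411 were counted as the same, and that of the 3 neuronal markers kept, -0.21, became 0.0 with no filter on low values. The 1.5-fold allowed is wide beside most list medians, so the count says little about direction. Medians near 0 could change sign within it. GC centring, for example, took the glucose-sensing list from -0.10 to 0.03 and the actin list from 0.05 to -0.02. Of 2323 values of named genes 2298 were counted as the same and 25 moved by over 1.5-fold, 8 with 0.1 FPKM added in place of 1 and 17 with 5.

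The counts of genes depended on the low values. In U87, 100 higher and 94 lower genes became 213 and 174 with 0.1 FPKM added, 20 and 12 with 5 FPKM added, and 57 and 38 at a mean of at least 5 FPKM. In DBTRG-05MG, over its own kept genes, 152 and 99 became 338 and 176, 37 and 33, and 78 and 50 in the same order, and 247 were higher with no filter. Without snoRNA and microRNA loci 46 were lower in U87, and 97 were higher and 64 lower in DBTRG-05MG. Among the genes with a GC value, 43 were lower in U87 as deposited and 29 after GC centring. At 1.5-fold the U87 counts were 513 and 527, and at 4-fold 3 and 11. The 12 h library was the highest of the U87 line for 1475 genes and the lowest for 1253; with no filter these were 3105 and 1947, and 930 were highest at a mean of at least 5 FPKM. For single genes near or under 1 FPKM, such as PDK4, the depth allows little precision.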

Other observations

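Genes of the serine- and arginine-rich splicing factors, which bind exons and promote their inclusion, were mostly lower in U87 at 12 h than at 6 h. At 6 h 6 of the 13 kept stood at least 1.5-fold above 0 h and 2 as far below it. At 12 h 2 stood that far above 0 h and 3 that far below. This list was chosen after the values were seen. Of 13 kept, 11 were below and 2 above their 6 h level, with 7 at least 1.5-fold and 3 at least 2-fold lower and a median of -0.59. SRSF5 had 66.0, 71.0, 31.3, 31.4 and 62.6 FPKM at 0, 6, 12, 24 and 48 h, and SRSF7 had 27.7, 50.7, 22.9, 15.1 and 11.9 FPKM. The list's median was 0.50 from 0 to 6 h in U87 and 0.15 from 6 to 12 h in DBTRG-05MG. The other large family of nuclear RNA-binding proteins, the hnRNPs, had a median of -0.15 over 17 genes, with 6 above and 11 below. After GC centring the serine- and arginine-rich list had -0.39.

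For a pair of snoRNAs the host gene and the small locus in it had unlike steps. Both loci were picked for being among the 12 lowest genes by size. They are short, so a few reads give several FPKM. At 6 and 12 h SNORD44 was listed at 19.0 and 1.68 FPKM and SNORD25 at 8.64 and 0 FPKM. Whether the unlike steps exceed the noise of so few reads was not tested. GAS5, the host of SNORD44, had a step of 0.03 while SNORD44 had -2.90. SNHG1, the host of SNORD25, had a step of -0.08 while SNORD25 had -3.27. The long non-coding RNA NEAT1, which scaffolds paraspeckles, had 157, 78.8, 41.3, 48.9 and 191 FPKM in U87, with its lowest value at 12 h. The cell cycle inhibitor CDKN1A differed little over the step, with 140.1, 58.6, 61.5, 225 and 400 FPKM. TXNIP, which restrains glucose uptake and responds to glucose, had 225, 28.3, 42.6, 50.7 and 1148 FPKM, so its 12 h level was far below both the 0 h and the 48 h level.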
